A study of Mus musculus with 22 samples.

Results

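The genes described here form a group of 8 members linked to the maturing trophectoderm and the early trophoblast: Hand1, Ascl2, Id2, Dab2, Plac1, Tspan8, Fabp3 and Sct. They were picked by symbol for that association, with earlier results of these data known. All 8 were found among the 55335 genes of the FPKM table (FPKM counts sequenced fragments relative to transcript length and library size). The study depleted the histone variant H2A.Z in mouse embryos and sequenced polyadenylated RNA of control and knockdown (KD) 2-cell embryos, morulae and blastocysts. All embryos were of the B6D2F1 background. KD embryos had received about 10 pl of a mixture of siRNAs against H2A.Z at 20 μM, injected into zygotes at 20 to 22 h after hCG (human chorionic gonadotropin, the hormone that triggers ovulation). The 22 libraries fell into 6 groups: 4 control and 3 KD libraries of 2-cell embryos, 4 control and 3 KD libraries of morulae, and 4 control and 4 KD libraries of blastocysts. Embryos of these stages were collected at 43 to 44 h, 78 h and 94 h after hCG.

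Each library was made from a pool of 15 embryos by a Smart-seq2 protocol, so cells of different lineages were read together. Whether the control embryos of the RNA-seq libraries had been injected was not stated, and neither was whether the KD embryos taken as blastocysts had formed a cavity, although the study describes reduced blastocyst formation after KD. The study states that its experiments were repeated, but which libraries came from separate cultures is not given. The p-values therefore measure the spread between these libraries, part of which may be technical. In pools of this kind, fewer cells of a type and less RNA per cell cannot be told apart.

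The trophectoderm is the outer epithelium of the blastocyst. It pumps fluid into the cavity, carries the embryo through implantation and gives rise to the trophoblast of the placenta. Its specification begins in outer cells of the morula and precedes the expression of many genes of transport, adhesion and placental function, while several trophoblast regulators reach high expression only after implantation.

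H2afz, the gene that encodes H2A.Z and the target of the siRNAs, was examined first. Values are given throughout as FPKM in order of replicate number, which is 1, 2, 4 and 5 for control and 1, 2 and 4 for KD 2-cell embryos. The numbers are 1, 2, 7 and 8 for control and 1, 2 and 6 for KD morulae, and 1, 4, 5 and 6 for both kinds of blastocysts. In 2-cell embryos, H2afz was at 1244, 1236, 905 and 1178 in control and 415, 139 and 112 in KD libraries. In morulae, H2afz was at 1158, 1336, 1511 and 1421 in control and 30.3, 25.7 and 29.0 in KD libraries. In blastocysts, H2afz was at 2656, 2431, 1945 and 2055 in control and 64.2, 67.2, 53.2 and 57.6 in KD libraries. Every KD library lay below every control library of its stage, so no label was contradicted, and KD library 1 of the 2-cell stage kept the most H2afz. The log2 fold change (log2 FC) of KD over control was -5.41 ± 0.17 (SE) in morulae (limma, adjusted p = 9.71e-08) and -5.19 ± 0.20 in blastocysts (limma, adjusted p = 3.63e-08). In 2-cell embryos it was -2.53 ± 0.38, which missed the threshold over all genes (limma, adjusted p = 0.543) and passed it without KD library 1 (log2 FC -3.12, limma adjusted p = 0.000907). H2afv, which encodes the related variant H2A.Z.2, fell at the later stages: log2 FC was -2.93 in morulae and -1.86 in blastocysts, where its FPKM was 49.9 to 63.5 in control and 10.6 to 19.9 in KD libraries. In 2-cell embryos the H2afv groups overlapped, and its log2 FC was -0.23 ± 0.16 (limma, adjusted p = 0.840).

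The fold changes come from limma, a linear model fitted to all genes at once, on log2(FPKM + 1) after scaling of the libraries. This scale understates the change of genes at low FPKM. A differentially expressed gene (DEG) had an absolute log2 FC above 1 and a Benjamini-Hochberg adjusted p under 0.05 over all genes of the fit. Genes entered a fit with FPKM of at least 1 in at least 3 of its libraries. By this filter 4 of the 8 members were tested in 2-cell embryos (Id2, Dab2, Plac1 and Tspan8) and 7 in every other comparison, with Ascl2 in none. Hand1 in blastocysts passed the filter through KD libraries alone and Plac1 in morulae through 3 control libraries alone, so their entry was tied to a difference between the groups, and the counts over the tested members are given as a description.

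The name of the group was compared with the control embryos. In control blastocysts the mean FPKM (± SD, n = 4) was 2773 ± 409.6 for Fabp3, 755 ± 111 for Id2, 487 ± 168 for Tspan8 and 128 ± 29.5 for Dab2. It was 19.4 ± 8.32 for Plac1, 8.62 ± 1.53 for Sct, 0.183 ± 0.165 for Ascl2 and 0.0607 ± 0.00622 for Hand1. Only 21 genes of the table had a higher mean than Fabp3, 121 than Id2 and 195 than Tspan8, whereas 16549 genes lay above Ascl2 and 20579 above Hand1. Fabp3 and Id2 did not overlap, nor did Id2 and Dab2, Tspan8 and Dab2, Dab2 and Plac1 or Plac1 and Sct, while the highest Tspan8 library lay above the lowest Id2 library. Ascl2 and Hand1 overlapped, since 1 control blastocyst library held no Ascl2. Fabp3, Id2, Plac1, Tspan8 and Sct were highest in blastocysts among the control stages, in keeping with the name. Hand1 and Ascl2 went against it: Hand1 was a morula transcript that was near 0 in control blastocysts, and Ascl2 did not exceed 1.06 FPKM in any of the 22 libraries. Dab2 had reached its blastocyst level in morulae.

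KD blastocysts had less RNA of Tspan8, Plac1, Fabp3 and Id2 than control blastocysts and more of Hand1. Of the 7 members tested in blastocysts, 1 was an upregulated DEG and 4 were downregulated DEGs, where 6.06% of the 11828 genes tested were upregulated and 7.69% downregulated. Dab2 and Sct were not DEGs in blastocysts. The members were chosen with earlier results of these data known, so the counts of members are a description and not a test. In morulae, 0 of the 7 members tested were DEGs in either direction, against 0.992% of 10989 genes upregulated and 2.53% downregulated. Of those 7, Hand1, Plac1 and Sct had an adjusted p under 0.05 in limma with an absolute log2 FC below 1, and 4 had an unadjusted p under 0.05. Over all 10989 genes, 1458 had an adjusted p under 0.05 in limma and 3352 (30.5%) an unadjusted one. The adjusted p-values of Hand1, Plac1 and Sct depended on single libraries: with 1 left out, the highest in limma was 0.174 for Hand1, 0.0755 for Plac1 and 0.0711 for Sct. Morula libraries with low and with high replicate numbers stood apart in both groups, and with a term for that split 0 of the 7 were DEGs as well. In 2-cell embryos limma called 0 of 12160 genes in either direction (0% upregulated, 0% downregulated), among them 0 of the 4 members tested. An unadjusted p under 0.05 was reached there by 701 genes (5.76%) and by 2 of the 4 members. The KD effect differed between blastocysts and morulae for 4 of the 7 members tested, all with a lower value in blastocysts (Id2, Plac1, Tspan8 and Sct). Plac1 lost this call with a pseudocount of 0.1 in place of 1 (-0.88, limma adjusted p = 0.408). In that test of the difference 3.52% of 12727 genes were called higher and 4.12% lower. The comparisons within a stage, between stages and of the difference share libraries with one another.

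**Figure D1:**
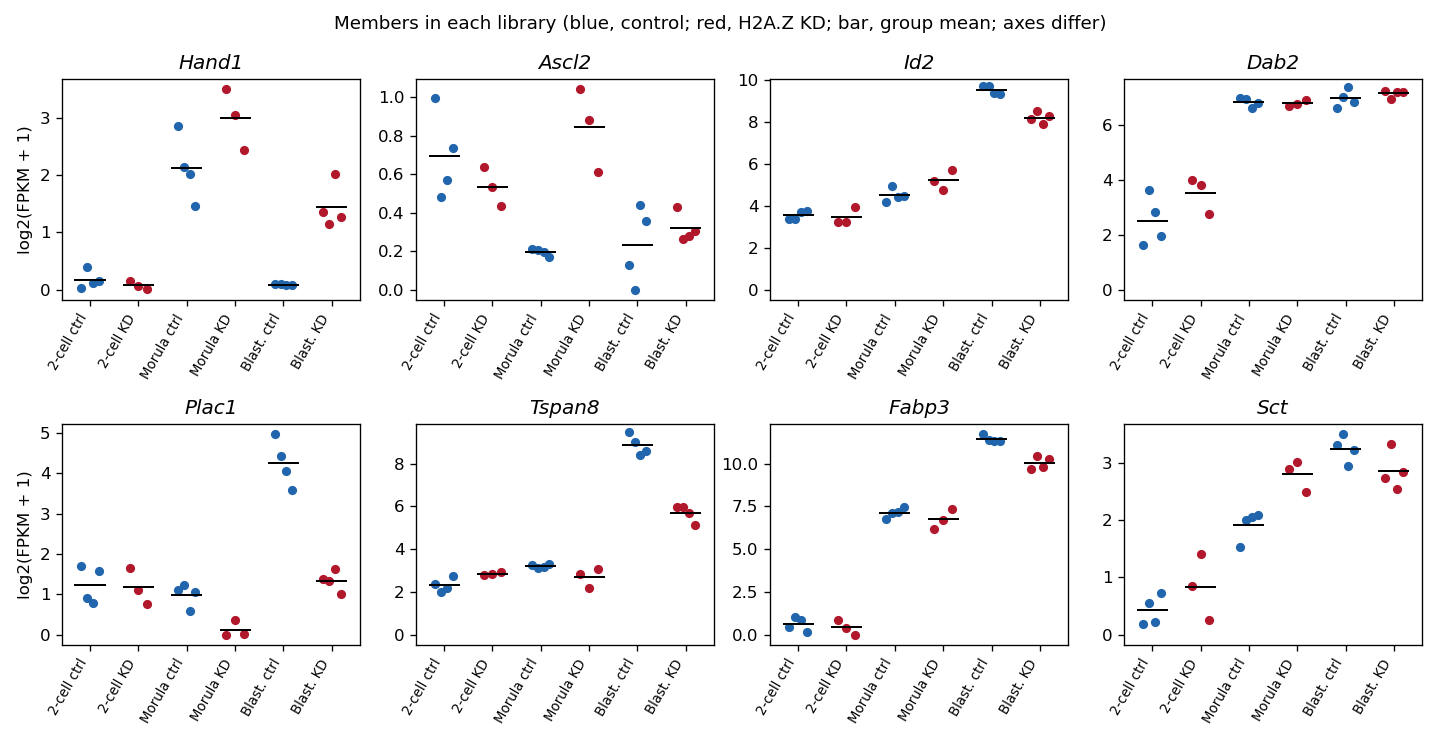
FPKM of each of the 8 members in every library, 1 panel per gene, with control and KD libraries of the 2-cell, morula and blastocyst stages side by side and a bar at each group mean. Tspan8, Plac1, Fabp3 and Id2 lie lower in the 4 KD than in the 4 control blastocyst libraries, and Hand1 lies higher.

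Hand1 encodes a basic helix-loop-helix (bHLH) transcription factor that promotes trophoblast giant cell differentiation. In 2-cell embryos its FPKM was 0.0218, 0.307, 0.0886 and 0.109 in control and 0.107, 0.0475 and 0.00925 in KD libraries. In morulae it was 6.25, 3.42, 3.07 and 1.76 in control and 10.4, 7.33 and 4.46 in KD libraries. In blastocysts it was 0.0636, 0.0674, 0.0588 and 0.0530 in control and 1.57, 1.21, 3.06 and 1.41 in KD libraries. Hand1 was thus near 0 in 2-cell embryos, present in every morula library and again near 0 in control blastocysts, while all 4 KD blastocyst libraries held more than 1 FPKM. The KD and control blastocysts did not overlap, and the lowest KD library was 18.0-fold above the highest control library. In morulae 2 of the 3 KD libraries lay above all controls and the third overlapped with them.

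In control embryos Hand1 rose from the 2-cell stage to the morula (log2 FC 1.91 ± 0.21, limma adjusted p = 3.87e-06) and fell from the morula to the blastocyst (log2 FC -2.05 ± 0.21, limma adjusted p = 8.43e-06), with a 59.7-fold higher mean FPKM in morulae. With a pseudocount of 0.1 in place of 1 these values were 3.98 and -4.44. In KD blastocysts Hand1 was upregulated, with log2 FC 1.35 ± 0.17 (limma, adjusted p = 0.000127) and a 29.9-fold higher mean FPKM. With the smaller pseudocount its log2 FC was 3.47. Hand1 entered this fit through KD libraries alone. Its control blastocyst values were close to the limit of detection, so the fold is imprecise. In morulae the log2 FC of KD over control was 0.99 ± 0.29 (limma, adjusted p = 0.0480), below the threshold of size. When single libraries were left out it was 0.77 to 1.24, and the adjusted p in limma rose as high as 0.174. It was called without control library 1 (1.17, limma adjusted p = 0.0217) and without KD library 6 (1.24, limma adjusted p = 0.0296), and also with quantile normalization (1.03, limma adjusted p = 0.0449). From KD morulae to KD blastocysts Hand1 also fell, by 1.70 ± 0.26 on the log2 scale (limma, adjusted p = 0.000403). The KD effect on Hand1 was not called different between the stages (difference 0.30 ± 0.35, limma adjusted p = 0.619), although with a pseudocount of 0.1 the difference was 2.22 (limma, adjusted p = 0.00788).

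Ascl2, which encodes a bHLH factor needed for the spongiotrophoblast of the placenta and is imprinted there, was low in all groups. Its FPKM in 2-cell embryos was 0.993, 0.393, 0.482 and 0.666 in control and 0.557, 0.444 and 0.349 in KD libraries. The morula libraries held 0.158, 0.153, 0.145 and 0.125 FPKM in control and 1.06, 0.839 and 0.529 in KD libraries. The blastocyst libraries held 0.0937, 0, 0.357 and 0.281 FPKM in control and 0.348, 0.199, 0.214 and 0.233 in KD libraries. All 3 KD morula libraries lay above all 4 control morula libraries, by at least 3.35-fold, whereas the groups overlapped in 2-cell embryos and blastocysts. The control values are near the limit of detection, so the folds are imprecise. In morulae the mean FPKM was 5.56-fold higher in KD, and the mean log2(FPKM + 1) was higher by 0.65, with p = 0.0286 in a two-sided exact permutation test, the smallest value that its 35 splits allow. The exact p was 0.371 in 2-cell embryos and 0.486 in blastocysts. These p-values of single genes were not adjusted over genes.

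Id2 encodes an inhibitor that lacks a DNA-binding domain and sequesters bHLH partners, and it is an early marker of outer cells. The 2-cell libraries had Id2 at 9.31, 9.32, 12.1 and 12.5 in control and 8.51, 8.34 and 14.6 in KD libraries. Morulae had Id2 at 17.0, 29.7, 20.3 and 21.5 in control and 34.9, 26.0 and 52.0 in KD libraries. Blastocysts had Id2 at 847, 853, 677 and 642 in control and 279, 366, 239 and 311 in KD libraries. The control blastocyst libraries all lay above the KD ones, with 1.76-fold between the nearest pair, while 2 of the 3 KD morula libraries lay above all control morulae. From control morulae to control blastocysts Id2 rose 34.1-fold in mean FPKM (log2 FC 4.96 ± 0.21, limma adjusted p = 2.29e-08), and from KD morulae to KD blastocysts 7.94-fold (log2 FC 2.80 ± 0.25, limma adjusted p = 1.53e-05). In KD blastocysts Id2 was downregulated (log2 FC -1.33 ± 0.21, limma adjusted p = 0.000533), with a mean 2.53-fold higher in control. In morulae the log2 FC was 0.83 ± 0.27 (limma, adjusted p = 0.0667) and in 2-cell embryos -0.01 ± 0.22 (limma, adjusted p = 0.998). The KD effect was lower in blastocysts than in morulae by a log2 difference of -2.21 ± 0.35 (limma, adjusted p = 0.000890).

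Between 2-cell and morula controls the log2 FC of Id2 was 0.95 ± 0.20 (limma, adjusted p = 0.000894). It was 0.85 to 1.15 when single libraries were left out and passed 1 without morula control library 1 (1.15, limma adjusted p = 0.000100) and without morula control library 7 (1.0006, limma adjusted p = 0.00200). It also passed with a pseudocount of 0.1 (1.005, limma adjusted p = 0.00109).

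Dab2 encodes a clathrin adaptor that links receptors such as megalin to endocytosis. Its FPKM at the 2-cell stage was 2.096, 11.3, 6.18 and 2.92 in control and 15.1, 13.2 and 5.77 in KD libraries. At the morula stage it was 125, 122, 98.0 and 112 in control and 103, 109.8 and 120.3 in KD libraries. At the blastocyst stage it was 99.1, 129, 168 and 115 in control and 153, 125, 146 and 147 in KD libraries. Dab2 was low in 2-cell embryos and at 98.0 FPKM or above in every later library, and control and KD libraries overlapped at each stage. The rise from 2-cell to morula controls was the main change (log2 FC 4.31 ± 0.35, limma adjusted p = 2.51e-07). From morula to blastocyst the log2 FC was 0.05 ± 0.16 in control (limma, adjusted p = 0.806) and 0.16 ± 0.16 in KD embryos (limma, adjusted p = 0.457). The log2 FC of KD over control was 0.09 ± 0.14 in morulae (limma, adjusted p = 0.712; -0.04 without scaling) and 0.19 ± 0.16 in blastocysts (limma, adjusted p = 0.390). In 2-cell embryos it was 1.07 ± 0.45 with an unadjusted p = 0.0367 (limma, adjusted p = 0.828), and 2 of the 3 KD libraries lay above all controls.

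Plac1 is an X-linked gene for a secreted or membrane-associated protein of the trophoblast. Plac1 FPKM in 2-cell embryos was 2.24, 0.883, 0.729 and 1.96 in control and 2.14, 1.14 and 0.691 in KD libraries. Plac1 FPKM in morulae was 1.15, 1.34, 0.494 and 1.07 in control and 4.9e-05, 0.284 and 0.0101 in KD libraries. Plac1 FPKM in blastocysts was 30.5, 20.5, 15.6 and 11.1 in control and 1.60, 1.52, 2.07 and 1.000 in KD libraries. All KD morulae and all KD blastocysts lay below all controls of their stage, with 1.74-fold between the nearest libraries in morulae and 5.34-fold in blastocysts, and the 2-cell groups overlapped. Control blastocysts were themselves spread, with control library 1 highest and control library 6 lowest. Plac1 rose from control morulae to control blastocysts (log2 FC 3.20 ± 0.29, limma adjusted p = 3.83e-06), a 19.1-fold difference of mean FPKM. In KD blastocysts it was downregulated, with log2 FC -2.92 ± 0.29 (limma, adjusted p = 2.69e-05) and a mean 12.5-fold higher in control.

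In morulae the log2 FC of Plac1 was -0.82 ± 0.19 (limma, adjusted p = 0.0189) with the pseudocount of 1 and -2.62 with 0.1 (limma, adjusted p = 0.0176), so the size threshold was passed only with the smaller pseudocount. Without control library 1, 2 or 8 Plac1 left the fit. In 2-cell embryos it was -0.04 ± 0.30 (limma, adjusted p = 0.989). From KD morulae to KD blastocysts Plac1 rose by 1.13 ± 0.19 (limma, adjusted p = 0.000678), or 0.96 with quantile normalization, which is under the threshold. With a pseudocount of 0.1 the rise was 3.17. By mean FPKM it was 15.8-fold in KD and 19.1-fold in control embryos. The KD effect was lower in blastocysts than in morulae by -2.08 ± 0.38 (limma, adjusted p = 0.00222). With a pseudocount of 0.1 that difference was -0.88 (limma, adjusted p = 0.408) and was not called. By mean FPKM, Plac1 was 10.3-fold higher in control than in KD morulae and 12.5-fold higher in control than in KD blastocysts. The KD morula values were close to the limit of detection.

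Tspan8 encodes a tetraspanin, a membrane protein with 4 spans that organizes adhesion and signalling complexes. The FPKM of Tspan8 at the 2-cell stage was 4.21, 2.99, 3.54 and 5.62 in control and 5.86, 6.18 and 6.55 in KD libraries. Among morulae Tspan8 was at 8.55, 7.79, 7.94 and 8.82 in control and 6.05, 3.52 and 7.35 in KD libraries. Among blastocysts Tspan8 was at 714, 508, 335 and 389.6 in control and 62.6, 61.9, 51.0 and 33.8 in KD libraries. The blastocyst groups were far apart, with 5.36-fold between the highest KD and the lowest control library. KD libraries were also all above controls in 2-cell embryos and all below them in morulae, but by only 1.04-fold and 1.06-fold between the nearest libraries.

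From control morulae to control blastocysts Tspan8 rose 58.8-fold in mean FPKM (log2 FC 5.57 ± 0.25, limma adjusted p = 2.38e-08), the largest rise among the members tested. From KD morulae to KD blastocysts it rose 9.28-fold (log2 FC 2.83 ± 0.28, limma adjusted p = 2.52e-05). In KD blastocysts Tspan8 was downregulated, with log2 FC -3.16 ± 0.29 (limma, adjusted p = 1.73e-05) and a mean 9.30-fold higher in control. The log2 FC of KD over control was -0.42 ± 0.22 in morulae (limma, adjusted p = 0.217) and 0.58 ± 0.21 in 2-cell embryos (unadjusted p = 0.0178, limma adjusted p = 0.828). The difference of the KD effect between blastocysts and morulae was -2.78 ± 0.40 (limma, adjusted p = 0.000417). Between 2-cell and morula controls the log2 FC was 0.88 ± 0.18 (limma, adjusted p = 0.000678), or 1.03 with a pseudocount of 0.1.

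Fabp3 encodes a fatty acid-binding protein of the cytoplasm. Fabp3 was barely detected in 2-cell embryos, at 0.353, 1.03, 0.809 and 0.122 FPKM in control and 0.798, 0.330 and 0 in KD libraries. Morula libraries held 107, 139, 142 and 176 FPKM in control and 69.9, 103 and 163 in KD libraries. Blastocyst libraries held 3382, 2648, 2528 and 2534 FPKM in control and 823, 1383, 879 and 1215 in KD libraries. Fabp3 thus had the highest mean of the members in morulae and blastocysts, although it overlapped with Dab2 in control and in KD morulae. Control and KD morulae overlapped, and every control blastocyst library was at least 1.83-fold above every KD one. Fabp3 rose at both steps of control development, by log2 FC 6.47 ± 0.25 from 2-cell to morula (limma, adjusted p = 5.07e-10) and 4.21 ± 0.22 from morula to blastocyst (limma, adjusted p = 6.35e-08), 19.7-fold in mean FPKM for the later step. The rise from KD morulae to KD blastocysts was 9.61-fold (log2 FC 3.11 ± 0.30, limma adjusted p = 2.22e-05). In KD blastocysts Fabp3 was downregulated (log2 FC -1.38 ± 0.23, limma adjusted p = 0.000761), with a mean 2.58-fold higher in control.

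In morulae the log2 FC of Fabp3 was -0.27 ± 0.30 (limma, adjusted p = 0.582), and without KD library 1 it was 0.06. In 2-cell embryos, where Fabp3 was not in the fit, the difference of mean log2(FPKM + 1) was -0.20 (two-sided exact permutation test, p = 0.486). The difference of the KD effect on Fabp3 between blastocysts and morulae was -1.15 ± 0.40 (limma, adjusted p = 0.0710). When single libraries were left out it was -1.48 to -0.81, and the adjusted p in limma rose as high as 0.193. It was called without morula KD library 1 (-1.48, limma adjusted p = 0.0291) and without blastocyst KD library 4 (-1.31, limma adjusted p = 0.0406), and also with a term for the range of replicate numbers (-1.27, limma adjusted p = 0.0213).

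Sct encodes secretin, a peptide hormone precursor. Sct FPKM at the 2-cell stage was 0.134, 0.462, 0.167 and 0.662 in control and 0.8001, 1.66 and 0.195 in KD libraries. Sct FPKM in morulae was 1.89, 2.99, 3.16 and 3.25 in control and 6.43, 7.12 and 4.64 in KD libraries. Sct FPKM in blastocysts was 8.99, 10.4, 6.75 and 8.31 in control and 5.69, 9.04, 4.87 and 6.18 in KD libraries. All KD morulae lay above all control morulae, by at least 1.43-fold, whereas in blastocysts 3 of the 4 KD libraries lay below all controls and the other one overlapped with them. Sct rose at both steps of control development, by log2 FC 1.48 ± 0.19 from 2-cell to morula (limma, adjusted p = 1.71e-05; 2.81 with a pseudocount of 0.1) and 1.26 ± 0.21 from morula to blastocyst (limma, adjusted p = 0.000295). From KD morulae to KD blastocysts the log2 FC was -0.10 ± 0.24 (limma, adjusted p = 0.762; 0.06 without scaling). In blastocysts the log2 FC of KD over control was -0.38 ± 0.23 (limma, adjusted p = 0.214). The KD effect was lower in blastocysts than in morulae by -1.39 ± 0.32 (limma, adjusted p = 0.0102).

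In morulae the log2 FC of Sct was 0.98 ± 0.21 (limma, adjusted p = 0.0159), just under the threshold of size. Without control library 2, 7 or 8 it was 1.003, 1.03 and 1.06 (limma, adjusted p = 0.0341, 0.0303 and 0.0235), and without KD library 6 it was 1.11 (limma, adjusted p = 0.0214), whereas without control library 1 or KD library 1 or 2 it lay below 1, at 0.80 or more (limma, adjusted p up to 0.0711). It was 1.21 with a pseudocount of 0.1 (limma, adjusted p = 0.0195) and 1.03 with quantile normalization (limma, adjusted p = 0.0166). In 2-cell embryos the difference of mean log2(FPKM + 1) was 0.42 for Sct (two-sided exact permutation test, p = 0.229) and -0.10 for Hand1 (two-sided exact permutation test, p = 0.429).

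**Figure D2:**
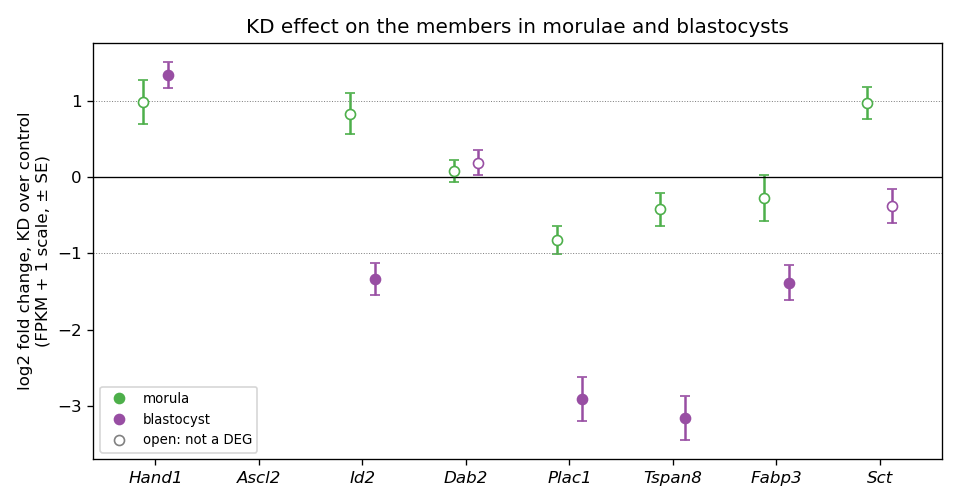
Log2 fold change of KD over control (± SE, limma) for each member in morulae and blastocysts, with filled points for DEGs and dotted lines at the thresholds of -1 and 1. In blastocysts Tspan8 (-3.16), Plac1 (-2.92), Fabp3 (-1.38) and Id2 (-1.33) lie below -1 and Hand1 (1.35) above 1, in morulae no member passes either line, and Ascl2 was not tested.

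Counted over the stages of control development, 4 of the 7 members tested were upregulated from 2-cell to morula (Hand1, Dab2, Fabp3 and Sct) and 0 were downregulated, where 32.1% of 13655 genes were upregulated and 30.1% downregulated. With a pseudocount of 0.1 the upregulated members numbered 6, with Id2 and Tspan8 added. From control morulae to control blastocysts 5 of 7 were upregulated (Id2, Plac1, Tspan8, Fabp3 and Sct) and 1, Hand1, was downregulated, where 13.4% of 11849 genes were upregulated and 12.9% downregulated. From KD morulae to KD blastocysts 4 of 7 were upregulated (Id2, Plac1, Tspan8 and Fabp3) and 1, Hand1, was downregulated, where 8.42% of 11370 genes were upregulated and 6.32% downregulated. Plac1 had a log2 FC of -0.26 ± 0.23 from 2-cell to morula controls (limma, adjusted p = 0.307; 0.04 with quantile normalization). Some of these genes entered a fit only through the stage where they were high, which ties the call to the entry: Hand1 and Sct through morulae in the earlier step, Hand1 through morulae in the later control step and Plac1 through blastocysts in the KD step. Fabp3 had 1 control library of the 2-cell stage above 1 FPKM. The counts are therefore a description.

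The position of KD blastocysts along the control change was read for the 6 members that changed between control morulae and control blastocysts. The mean log2(FPKM + 1) of control morulae was set at 0% and that of control blastocysts at 100%. The 4 KD blastocyst libraries averaged 10.5% for Plac1 (0.293 to 19.2%), 33.0% for Hand1 (4.91 to 48.0%) and 43.9% for Tspan8 (33.7 to 49.1%). They averaged 67.7% for Fabp3 (59.5 to 76.9%), 71.1% for Sct (47.7 to 106%) and 73.5% for Id2 (67.4 to 79.6%). Plac1 in KD blastocysts was thus close to the control morulae, Tspan8 was near the middle of the log scale and Id2 and Fabp3 lay beyond it. These positions are set against control morulae and do not give the change from KD morulae. For Sct the mean log2(FPKM + 1) was 1.92 in control morulae, 2.80 in KD morulae and 2.87 in KD blastocysts. For Plac1 it was 0.99 in control morulae, 0.13 in KD morulae and 1.33 in KD blastocysts. Single control blastocysts spanned 79.5 to 122% for Plac1, 91.6 to 111% for Tspan8 and 77.7 to 119.7% for Sct, so the KD values of Sct overlapped with the control range and those of Plac1 and Tspan8 did not. No test was made of these shares.

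The order of the members also differed between control and KD blastocysts. By mean FPKM, control blastocysts ran Fabp3, Id2, Tspan8, Dab2, Plac1, Sct, Ascl2 and Hand1, and KD blastocysts Fabp3, Id2, Dab2, Tspan8, Sct, Hand1, Plac1 and Ascl2. The number of genes above Tspan8 was 195 in control and 1679 in KD blastocysts, above Plac1 3269 and 9787, and above Hand1 20579 and 9307. In KD blastocysts the libraries of Hand1 and Plac1 overlapped, so their order was within the spread. Within the KD group, library 5 had the most Hand1 and Plac1 and the least Id2, and library 6 the least Plac1 and Tspan8.

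The files hold no read counts, so the depth in reads is unknown. The smallest values of genes with 1 exon came in steps, and the size of the commonest step put the depth of the libraries at 51.4 to 100% of the deepest. By the length of its longest transcript, Hand1 was at 1.89 to 2.72 steps in control blastocysts and at 45.7 to 119 steps in KD blastocysts. Plac1 was at 0.00120, 8.34 and 0.346 steps in KD morulae and at 16.2 to 37.6 steps in control morulae. Ascl2 was at 5.22 to 6.37 steps in control and 24.2 to 34.6 steps in KD morulae, and at 0 to 9.91 steps in control blastocysts. In control 2-cell embryos Hand1 was at 0.960 to 10.7 steps, Sct at 1.91 to 11.3 and Fabp3 at 2.78 to 18.4. A value below 1 step stands for less than a whole fragment by this reading. Hand1 in control blastocysts, Plac1 in KD morulae, Ascl2 in control morulae and blastocysts, and Hand1, Sct and Fabp3 in control 2-cell embryos were therefore close to the limit of detection, and the folds against them are imprecise.

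Other genes of the same processes were described from lists, each by its DEGs and median log2 FC in blastocysts, where the median over all genes tested was 0.00, 6.06% of them were upregulated and 7.69% downregulated. Over the 8 lists 47 genes were tested, of which 2 rose and 3 fell, so the lists did not stand out from all genes, and the DEGs below are given as a description. Among early trophectoderm factors 8 of 10 were tested, 0 rose and 2 fell, with a median of -0.18. Gata2, a trophoblast GATA factor, was at 2.96, 3.18, 1.35 and 0.935 in control and 0.0582, 0.121, 0.205 and 0.10 in KD blastocysts (log2 FC -1.39 ± 0.24, limma adjusted p = 0.00110; -3.19 with a pseudocount of 0.1). Elf5, an ETS factor of trophoblast stem cells, was at 2.12, 2.20, 1.47 and 0.841 in control and 0.0300, 0.0991, 0.186 and 0.103 in KD blastocysts (log2 FC -1.23 ± 0.19, limma adjusted p = 0.000510; -3.07 with a pseudocount of 0.1). Both were low and passed the filter through control libraries alone, and the groups did not overlap for either. Klf5, the most abundant of the list, had means of 48.5 FPKM in control and 46.4 in KD blastocysts. Among trophoblast differentiation and placental genes 4 of 18 were tested, 1 rose and 0 fell, with a median of 0.88. The riser was Prl3b1, which encodes a placental lactogen, at 7.79, 8.43, 8.72 and 9.22 in control and 30.7, 27.0, 25.9 and 24.1 in KD blastocysts (log2 FC 1.55 ± 0.16, limma adjusted p = 3.81e-05). Prl3b1 was at 52.3, 50.9, 39.2 and 42.3 in control morulae, so like Hand1 it was higher in control morulae than in control blastocysts. Phlda2 had the highest mean of that list over all 22 libraries, owing to the 2-cell embryos, but in blastocysts its means of 6.43 FPKM in control and 13.2 in KD lay below those of Prl3b1.

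Among bHLH partners and Id relatives 2 of 8 were tested in blastocysts, 1 rose and 0 fell, with a median log2 FC of 1.02. Id3, an inhibitor of the same kind as Id2 and the most abundant of the list, was at 30.5, 31.5, 27.2 and 19.4 in control and 41.1, 54.6, 74.0 and 65.8 in KD blastocysts. All 4 KD libraries lay above all controls, opposite to Id2 (log2 FC 1.09 ± 0.21, limma adjusted p = 0.00173), although without control library 6 the log2 FC was 0.92 (limma, adjusted p = 0.00596). Id1 had a log2 FC of 0.96 (limma, adjusted p = 0.0154), below the threshold of size. Among tetraspanins 13 of 15 were tested, 0 rose and 1 fell, a share near the 7.69% of all genes, with a median of -0.26. The one that fell was Tspan3, at 28.0, 45.2, 55.8 and 34.3 in control and 18.2, 14.3, 19.8 and 17.3 in KD blastocysts (log2 FC -1.14 ± 0.19, limma adjusted p = 0.000678). Cd63 was the most abundant tetraspanin, with means of 3014 FPKM in control and 1978 in KD blastocysts.

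Of the endocytic partners of Dab2, 9 of 12 were tested in blastocysts and 0 rose or fell in limma, with a median of 0.01, and Lrpap1 was the most abundant with means of 424 FPKM in control and 559 in KD. Of the genes for lipid binding and uptake, 5 of 10 were tested and 0 rose or fell, with a median of -0.48, and Fabp5 was the most abundant with means of 396 FPKM in control and 301 in KD. Of the neighbours of Ascl2 on distal chromosome 7, 6 of 13 were tested and 0 rose or fell, with a median of 0.50, and Nap1l4 was the most abundant with 27.1 FPKM in control and 28.8 in KD. Of the secretin family ligands and the secretin receptor, 0 of 6 were tested, and Gip, the highest over all 22 libraries owing to the 2-cell embryos, had means of 0.0249 FPKM in control and 0.138 in KD blastocysts. In morulae 39 genes of the 8 lists were tested, of which 1 rose and 0 fell, near the shares of all genes at that stage (0.992% upregulated, 2.53% downregulated). The riser was the tetraspanin Cd81, at 0.766, 0.0831, 0.582 and 0.212 in control and 2.84, 1.62 and 1.48 in KD libraries (log2 FC 1.14 ± 0.21, limma adjusted p = 0.00821). It passed the filter through KD libraries alone, and it was not called without the filter on low FPKM (limma, adjusted p = 0.0637). In 2-cell embryos 0 of 35 tested genes of the lists were DEGs in limma.

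Markers of the cell types in the pools were summed per library. The 6 trophectoderm markers (Cdx2, Gata3, Krt8, Krt18, Atp1b1 and Aqp3) summed to 1023, 1525, 1375 and 1028 FPKM in control and 640.5, 778, 858 and 657 in KD blastocysts, with every KD sum below every control sum. Krt18, the most abundant of them, had means of 799 FPKM in control and 390 in KD and was the 1 of 6 that fell (log2 FC -1.02 ± 0.18, limma adjusted p = 0.00126), with 0 that rose. It lost the call without control library 4 (-0.93), KD library 5 (-0.98) or KD library 6 (-0.93). The 6 markers of inner cell mass and epiblast summed to 212, 232, 299 and 184 in control and 152, 168, 296 and 211 in KD blastocysts, and these groups overlapped, with Tdgf1 as the 1 of 5 tested that fell and 0 that rose. The 5 primitive endoderm markers summed to 11.2, 12.2, 11.2 and 21.2 in control and 13.5, 10.9, 38.3 and 21.1 in KD blastocysts, which overlapped too. The trophectoderm sum was thus lower in the KD group, as were Tspan8, Plac1, Fabp3 and Id2, but most of it was Krt18 and Krt8, and the markers did not all differ the same way. Aqp3, a channel for water and glycerol, had means of 26.1 FPKM in control and 51.1 in KD blastocysts (log2 FC 0.99 ± 0.28, limma adjusted p = 0.0155), and Cdx2, a factor of trophectoderm identity, had 1.79 and 1.89. In the difference of the KD effect between stages, Aqp3 was called higher (1.33, limma adjusted p = 0.0259) and Atp1b1, a sodium pump subunit, lower (-1.14, limma adjusted p = 0.00720). The part of these markers in the lower values of the 4 members was not tested.

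Of cells that could be carried over, fibroblast markers summed to at most 0.0712 FPKM in any library. Cumulus cell markers, led by Amhr2, summed to 3.89 to 6.34 FPKM in control and 4.08 to 6.39 in KD blastocysts. Amhr2 made up nearly all of this, with a mean of 5.16 of 5.18 FPKM in control and 4.68 of 4.73 in KD blastocysts. Of the 6 cumulus markers, 4 in control and 3 in KD blastocysts were at 0 in every library. Blood markers, led by Hba-a1, a globin gene, summed to 3.67, 1.45, 1.31 and 2.74 in control and 7.80, 5.03 and 4.30 in KD morulae. In blastocysts the blood markers summed to 0.636, 1.16, 1.73 and 1.89 in control and 2.48, 3.71, 3.31 and 2.095 in KD libraries, so every KD sum lay above every control sum at both stages. Nearly all of each sum was Hba-a1, with a mean of 5.67 of 5.71 FPKM in KD morulae and 2.88 of 2.90 in KD blastocysts. In each of these 4 groups, 2 of the 4 blood markers were at 0 in every library. Hba-a1, the only 1 of 4 tested, was an upregulated DEG in morulae (log2 FC 1.197 ± 0.26, limma adjusted p = 0.0172) and stayed below the threshold of size in blastocysts (0.79 ± 0.21, limma adjusted p = 0.00985). Its call in morulae was lost without the filter on low FPKM (limma, adjusted p = 0.110), without KD library 1 (0.0719) and without KD library 2 (0.0525). The 5 markers of the 2-cell stage summed to 0.787, 0.964, 0.291 and 0.716 in control and 3.08, 14.0, 3.30 and 9.55 in KD blastocysts, with no overlap. The part of these values in the members' differences was not tested.

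The genes with the pattern most like each member were found from the 6 group means of log2(FPKM + 1), each gene centred on its own mean, by the root mean square (RMS) difference. For Hand1 they were S100a3 (RMS 0.16), mt-Ty (0.17) and Cited2 (0.18). S100a3 had mean FPKM of 3.08 in control and 9.94 in KD morulae, 0.268 in control and 2.32 in KD blastocysts. For Id2 they were Bex3 (0.31), Gjb5 (0.40) and Prxl2b (0.41), and the gap junction gene Gjb5 had means of 65.4 in control and 23.0 in KD blastocysts. For Plac1 they were Xlr3b (0.28), Serpinb6b (0.32) and Gm14444 (0.34), with Xlr3b at 37.6 in control and 6.55 in KD blastocysts. For Tspan8 they were Slc15a2 (0.44), Tmsb4x (0.44) and Dmkn (0.51), with Tmsb4x at 330.1 in control and 68.3 in KD blastocysts. For Fabp3 the nearest were farther away: Mir147 (0.81), Krt18 (0.95) and AA467197 (1.02), of which Mir147 lies within AA467197 on the same strand. For Dab2 they were Mylpf (0.26), Capzb (0.27) and Rps18 (0.29), and for Sct Mt2 (0.18), Cox5a (0.21) and Cbs (0.23). Among the members themselves Id2 and Tspan8 were nearest to each other (0.78). Ascl2 was not searched, since its group means spanned only 0.65.

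All 8 members are annotated as protein-coding genes on GRCm38. The GENCODE annotation places Hand1 (ENSMUSG00000037335.13) at chr11:57828705-57832818 on the minus strand, Ascl2 (ENSMUSG00000009248.6) at chr7:142966829-142969264 on the minus strand and Id2 (ENSMUSG00000020644.9) at chr12:25093799-25097140 on the minus strand. It places Dab2 (ENSMUSG00000022150.16) at chr15:6299788-6440712 on the plus strand, Plac1 (ENSMUSG00000061082.11) at chrX:53069995-53240111 on the minus strand and Tspan8 (ENSMUSG00000034127.15) at chr10:115816832-115849893 on the plus strand. It places Fabp3 (ENSMUSG00000028773.8) at chr4:130308595-130315463 on the plus strand and Sct (ENSMUSG00000038580.13) at chr7:141278330-141279133 on the minus strand. Ascl2 and Sct share a chromosome and the other 6 members are each alone on theirs. Exons of 3 members overlap with genes on the opposite strand: those of Dab2 with the pseudogene Gm18888 (265 bases), which was at 0 FPKM in every library, those of Tspan8 with 4930422I22Rik (4 bases), and those of Fabp3 with Zcchc17 (81 bases) and Gm10570 (80 bases). Whether the quantification used strand is not stated, and Smart-seq2 libraries do not mark it. Zcchc17 had means of 28.8 FPKM in control and 33.0 in KD blastocysts, far below Fabp3. Of the 75-base stretches of the Fabp3 transcript, 24.3% also occur in the pseudogene Fabp3-ps1, which had means of 285 FPKM in control and 110.3 in KD blastocysts, so reads may have been divided between them and the level of Fabp3 is uncertain to that extent. For Dab2 the shared portion was 1.78%, and for the other 6 members 0%.

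The promoters of the 4 members that fell together in KD blastocysts are shown as the 250 bases before the start that RefSeq gives on GRCm38.p6, 5′ to 3′ on the strand of the gene. These starts are not always those of the GENCODE spans above: the windows of Id2, Tspan8 and the second start of Plac1 lie inside the GENCODE gene, and the window of Fabp3 runs across its GENCODE start. RefSeq entries were at hand for 7 of the 8 members (9 entries, not Hand1). Both strands were searched for 4 motifs, and matches are in capitals. The motif GGAATG of TEAD factors occurs in 12.6% of 32817 promoters of the same length. The GATA factor motif GATAAG occurs in 6.55% of them. For TFAP2 factors the letters were GCCNNNGGC, found in 13.7%. The E-box CAGCTG, bound by bHLH factors, occurs in 13.0%. The windows are chr12:25096093-25096342 (minus strand) for Id2, chrX:53240111-53240360 and chrX:53114406-53114655 (minus strand) for the 2 starts of Plac1, chr10:115817034-115817283 (plus strand) for Tspan8 and chr4:130308488-130308737 (plus strand) for Fabp3.
Id2: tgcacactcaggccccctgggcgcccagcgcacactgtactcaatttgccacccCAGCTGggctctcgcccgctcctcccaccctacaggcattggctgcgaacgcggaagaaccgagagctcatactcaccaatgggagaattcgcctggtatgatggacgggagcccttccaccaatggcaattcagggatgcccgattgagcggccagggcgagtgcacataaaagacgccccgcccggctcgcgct
Plac1 start 1: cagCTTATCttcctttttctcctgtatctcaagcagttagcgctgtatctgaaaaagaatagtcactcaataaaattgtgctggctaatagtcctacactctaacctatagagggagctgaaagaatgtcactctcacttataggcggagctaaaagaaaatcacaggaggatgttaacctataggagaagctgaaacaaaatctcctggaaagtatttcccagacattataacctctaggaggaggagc
Plac1 start 2: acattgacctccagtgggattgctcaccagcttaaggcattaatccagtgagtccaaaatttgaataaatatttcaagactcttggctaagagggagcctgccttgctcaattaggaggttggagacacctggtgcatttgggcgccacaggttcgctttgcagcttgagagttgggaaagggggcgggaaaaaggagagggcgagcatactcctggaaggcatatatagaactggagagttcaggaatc
Tspan8: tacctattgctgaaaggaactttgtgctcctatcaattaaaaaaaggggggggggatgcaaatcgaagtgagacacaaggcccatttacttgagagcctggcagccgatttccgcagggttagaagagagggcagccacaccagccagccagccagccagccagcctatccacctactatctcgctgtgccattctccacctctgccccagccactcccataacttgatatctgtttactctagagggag
Fabp3: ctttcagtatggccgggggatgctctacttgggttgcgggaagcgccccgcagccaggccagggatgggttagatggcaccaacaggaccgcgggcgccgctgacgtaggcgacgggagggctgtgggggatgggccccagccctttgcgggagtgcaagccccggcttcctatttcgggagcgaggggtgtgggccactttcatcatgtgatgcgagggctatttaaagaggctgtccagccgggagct
Id2 holds 1 E-box and the first start of Plac1 holds 1 GATA motif, while the second start of Plac1, Tspan8 and Fabp3 hold none of the 4 motifs in this window. Among the other members with an entry, the second start of Dab2 and the start of Sct each hold 1 TFAP2 motif and 1 E-box, and Ascl2 holds none. A match is a description of the letters and not a binding site.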

How the data were processed

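RNA-seq was measured in 22 libraries of control and H2A.Z KD embryos. The authors deposited FPKM per gene and library, made with StringTie 2.1.4 on mm10 (GRCm38), and the submitters' notes also name STAR, featureCounts 1.6.2 and DESeq2 1.30.1. Read counts were not used here, so no count test was run. FPKM was scaled by median of ratios over the libraries of a fit and log2-transformed with a pseudocount of 1, and limma 3.58.1 (R 4.3.3, empirical Bayes with trend) was fitted without covariates to genes with deposited values reaching 1 FPKM in 3 or more libraries. The difference of the KD effect was an interaction contrast over the 4 morula and blastocyst groups. Scripts were tested on simulated data. Members left out of a fit were tested by two-sided exact permutation of deposited log2(FPKM + 1). Values, likeness and marker sums used deposited FPKM. Depth was read from the steps of low FPKM (51.4 to 100% of the deepest library), which limits precision near 0. No pair of libraries was identical.

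Named genes were all 8 members, H2afz and H2afv, the DEGs of 8 gene lists (at most 4 per direction and comparison), the gene of each list with the highest mean over all libraries, and the 3 nearest genes by pattern. Marker genes of 7 cell types or stages were summed. Members and lists were chosen with earlier results of these data known. Alternatives were a pseudocount of 0.1, no filter, no scaling, quantile normalization, the replicate number as a block, a term for the range of replicate numbers, and leaving out each library. Python 3.11.15, numpy 2.4.6 and matplotlib 3.10.9 were used for the summaries and plots.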

Additional observations from a re-analysis of the deposited data

Results flagged for a closer look

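The KD effect on 4 members differed between the blastocyst and morula stages in the test of the difference itself. The log2 difference, blastocyst minus morula, was -2.21 for Id2, -2.08 for Plac1, -2.78 for Tspan8 and -1.39 for Sct. The 4 values rest on the same 15 libraries. With a pseudocount of 0.1 in place of 1 the call of Plac1 was lost (-0.88, limma adjusted p = 0.408). In Sct neither stage passed the DEG thresholds on its own, with log2 FC 0.98 in morulae and -0.38 in blastocysts.

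The highest Fabp3 value among control blastocysts, 3382 FPKM in library 1, stood farther from the other 3 libraries (2528 to 2648 FPKM) than the critical value of Dixon's test allows. It was 1 of 32 groups of 4 libraries checked, and chance alone gives such a value in about 1 of 20 groups.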

How the results depend on the processing

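Of 641 alternative values of 46 member results, 597 kept their direction and their side of the threshold, 2 lost and 20 gained a call, and 22 changed sign, none of them a called value. The lost calls were Plac1 in the difference between stages with a pseudocount of 0.1 (-0.88) and Plac1 from KD morula to blastocyst with quantile normalization (0.96). For 17 values of named genes outside the group, 212 of 222 did, 9 lost and 1 gained a call, and 0 changed sign. In blastocysts 1 member rose and 4 fell under all 14 alternatives: log2 FC was 1.18 to 3.47 for Hand1, -1.46 to -1.18 for Id2, -3.50 to -2.64 for Plac1, -3.36 to -2.91 for Tspan8 and -1.54 to -1.24 for Fabp3. Depth limits Hand1 in control blastocysts, Plac1 in KD morulae and Ascl2 in control morulae and blastocysts. The cause of the shifts below was not tested.

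Members upregulated in morulae numbered 1 with a pseudocount of 0.1 (Sct), 2 with quantile normalization (Hand1 1.03, Sct 1.03) and 0 to 2 without single libraries, in place of 0. Members downregulated there numbered 1 with a pseudocount of 0.1 (Plac1). In the difference between stages, members called higher numbered 1 with that pseudocount (Hand1 2.22). Fabp3 was called in that difference with a term for the range of replicate numbers (-1.27, limma adjusted p = 0.0213). Signs changed for Id2 in 2-cell embryos with quantile normalization (0.00200) and with the term for the range of numbers (0.0727), for Dab2 in morulae without scaling (-0.0364), for Plac1 from 2-cell to morula with quantile normalization (0.0377) and for Sct from KD morula to blastocyst without scaling (0.0636). Without single libraries, 2-cell values were -0.27 to 0.16 for Id2 and -0.29 to 0.16 for Plac1. Fabp3 in morulae was -0.61 to 0.0598, Dab2 from control morula to blastocyst -0.0553 to 0.12, Sct from KD morula to blastocyst -0.27 to 0.0447, and the difference between stages for Dab2 -0.0167 to 0.17.

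Counts of all upregulated and downregulated genes in morulae were 109 and 278, against 205 and 584 with a pseudocount of 0.1, 36 and 133 without the filter and 71 and 424 without scaling. In blastocysts 717 and 909 became 1107 and 1370 with that pseudocount. From KD morula to blastocyst 957 and 719 became 1480 and 1053 with it, and 1263 and 473 without scaling, where the median of all genes was 0.13. In the difference between stages 448 and 524 became 628 and 497 with a pseudocount of 0.1, 239 and 333 without the filter and 605 and 434 without scaling (median 0.11). From 2-cell to morula the median of all genes was 0.10 as fitted and 0.13 with a pseudocount of 0.1. Without 2-cell control library 2, 1 gene was downregulated at that stage, and without KD library 1, 3 genes.

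Single replicate numbers did not pair the libraries throughout: at no stage did every pair with the same number correlate above 0.1. Deviations of these pairs correlated across genes with r of 0.0146 to 0.214 in 2-cell embryos (3 pairs), 0.0944 to 0.181 in morulae (2 pairs) and -0.111 to 0.354 in blastocysts (4 pairs). The mean r of same-number and other pairs was 0.146 and -0.0488 in 2-cell embryos, 0.138 and -0.0282 in morulae, and 0.0826 and -0.0288 in blastocysts. Ranges of numbers did split the morulae: r was 0.0944 to 0.181 between control and KD libraries 1 and 2, 0.185 and 0.347 between control libraries 7 and 8 and KD library 6, and -0.278 to -0.0945 across. In 2-cell embryos r was -0.0211 to 0.209 within numbers 1 and 2, 0.163 and 0.214 within 4 and 5, and -0.237 to 0.0103 across. What the numbers stand for is not stated. With a term for the range, 0 members were DEGs in morulae and 1 rose and 4 fell in blastocysts, as without it. With the number as a block, 1 member was upregulated in morulae (Sct 1.31, limma adjusted p = 5.2e-05), Id2 passed 1 from 2-cell to morula (1.02, limma adjusted p = 0.00576), both in fits with 1 residual degree of freedom, and all genes upregulated and downregulated in morulae numbered 218 and 296. Signs changed with the block for Id2 (0.0557) and Plac1 (0.0622) in 2-cell embryos and Dab2 in morulae (-0.0481), and no other call of a member changed. Control morulae and blastocysts share only 1 number, so that step had no block.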

Other observations

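In control morulae and KD morulae, the 6 markers of inner cell mass and epiblast summed to 202, 206, 242 and 257 and 101, 101 and 161 FPKM, with every KD library below every control library. The sums had means of 226.5 FPKM in control and 121.1 in KD morulae. Nanog, a factor of the pluripotent lineage, fell there from a mean of 105.6 to 20.7 FPKM (log2 FC -2.23, limma adjusted p = 0.00647; 0.0719 without the filter on low FPKM). It was the 1 of 5 tested that fell in morulae, with 0 that rose and a median log2 FC of -0.13. Fgf4 had means of 0.815 FPKM in control and 1.105 in KD morulae. In blastocysts Nanog had means of 132 FPKM in control and 161 in KD, whereas Tdgf1 fell from 80.6 to 15.2 FPKM (log2 FC -2.28, limma adjusted p = 3.00e-05). Zfp352, a marker of the 2-cell stage, was at a mean of 0.370 FPKM in control and 3.28 in KD blastocysts (log2 FC 1.56, limma adjusted p = 0.00157). It passed the filter through KD libraries alone, so its entry was tied to the difference.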
